A study of Mus musculus with 3 samples.

Results

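SIBLING proteins, short for small integrin-binding ligand glycoproteins with N-linked sugars, are secreted, acidic phosphoproteins of mineralized tissue whose genes lie side by side on mouse chromosome 5. The members described here were the table's rows named *Dmp1*, *Ibsp*, *Mepe* and *Spp1*, 4 genes of the 26970 genes deposited. All 4 passed the filter on low values, which left 13026 genes. *Dspp*, the family member deleted in these mice, was not analysed here, and the deleted gene therefore gave no check of the labels.

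Poly(A) RNA of the mandibular condyle, the jaw's side of its joint, was sequenced at 4 months of age from WT mice, from Dspp+/- mice and from Dspp-/- mice, all on the C57BL/6 background, with 1 library per genotype. Dspp-/- mice carry a global knockout of *Dspp*, and Dspp+/- mice came from crossing them with C57BL/6 mice. Condyles were dissected with cartilage still joined to subchondral bone, and tissue of 3 animals was pooled for WT and for Dspp+/-. The number of animals behind the Dspp-/- library is not given in the sources used here. With 1 library per genotype there was no replicate and no test between genotypes. Each difference below is one between single libraries.

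SIBLING proteins carry an integrin-binding RGD sequence and acidic, phosphorylated stretches that bind calcium and hydroxyapatite. Osteopontin and bone sialoprotein are made by osteoblasts and hypertrophic chondrocytes, and osteopontin also by osteoclasts and macrophages. DMP1 and MEPE are largely products of osteocytes, the cells embedded in bone matrix, where DMP1 restrains the phosphate hormone FGF23 and MEPE is a source of mineral-inhibiting peptides.

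In the table the members lie in the order *Dmp1* (ENSMUSG00000029307, 104350479 to 104361968), *Ibsp* (ENSMUSG00000029306, 104447037 to 104459335), *Mepe* (ENSMUSG00000053863, 104473195 to 104486477) and *Spp1* (ENSMUSG00000029304, 104582984 to 104588916). All are on the plus strand of chromosome 5. The table does not name its build, and these starts lie 147866 bases beyond those of the same genes in GRCm38. From the start of *Dmp1* to the end of *Spp1* the cluster spans 238438 bases. The closest neighbours were *Ibsp* and *Mepe*, with 13859 bases between them. No other gene of GENCODE M21 overlaps *Dmp1*, *Ibsp* or *Mepe*. The predicted gene *Gm42793* overlaps the first part of *Spp1* on the same strand and was listed at 7.34 (WT), 2.37 (Dspp+/-) and 4.52 (Dspp-/-) FPKM.

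The stretches of 150 bases below are shown because the start regions of all 4 members share a spaced pair of sequences. They were read from the GRCm38.p6 promoter windows of RefSeq, which run from 250 bases before to 50 bases after a start, and are written 5′ to 3′ on the gene's own strand. Capitals mark ATTGG, which is the CCAAT box read on the other strand, then TTTAAA or TTTATA, which resemble a TATA box, and any AACCACA, a form of the RUNX binding sequence. *Sost*, an osteocyte gene on chromosome 11, is added because its window holds the same pair.
Dmp1 (chr5:104202452-104202601, plus strand): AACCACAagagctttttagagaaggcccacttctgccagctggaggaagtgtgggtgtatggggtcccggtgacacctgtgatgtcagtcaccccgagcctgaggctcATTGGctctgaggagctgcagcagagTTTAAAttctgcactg
Ibsp (chr5:104299125-104299274, plus strand): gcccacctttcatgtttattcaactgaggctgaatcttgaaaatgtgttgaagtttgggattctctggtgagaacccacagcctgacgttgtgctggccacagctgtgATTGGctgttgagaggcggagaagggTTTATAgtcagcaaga
Mepe (chr5:104325200-104325349, plus strand): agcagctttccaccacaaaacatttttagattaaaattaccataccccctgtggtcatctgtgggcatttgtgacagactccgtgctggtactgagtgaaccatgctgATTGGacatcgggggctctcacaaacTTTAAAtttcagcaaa
Spp1 (chr5:104434957-104435106, plus strand): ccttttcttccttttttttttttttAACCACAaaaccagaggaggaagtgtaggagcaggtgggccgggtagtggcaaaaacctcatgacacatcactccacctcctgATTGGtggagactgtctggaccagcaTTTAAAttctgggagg
Sost (chr11:101967030-101967179, minus strand): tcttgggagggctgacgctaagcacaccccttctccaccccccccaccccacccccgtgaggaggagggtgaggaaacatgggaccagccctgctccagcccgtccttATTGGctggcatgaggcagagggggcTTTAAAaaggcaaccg

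In each of the 5 lines, 21 bases separate ATTGG from the second box. ATTGG begins 57 bases before the RefSeq start in *Dmp1*, 54 in *Ibsp*, 21 in *Mepe*, 46 in *Spp1* and 56 in *Sost*. In *Mepe* the second box begins at base 6, counted from the RefSeq start, so it lies after that start. The start of *Ibsp* in GENCODE M21, at 104299171, is upstream of both boxes, so by that annotation most of the *Ibsp* line lies in its first exon. *Dmp1* and *Spp1* each have another RefSeq start whose window does not hold the pair. Over all 32851 windows of 300 bases, which come from 27025 genes, 22 windows (0.067%) held ATTGG, 21 bases of any letter and TTTANA on the gene's strand. On the other strand 9 windows (0.0274%) did. The 22 windows belong to 18 genes, of which 4 are the members and 14 are others. Of the 14, only *Sost*, *Mbd3*, *Mrpl3*, *Ndufb11* and *Vsnl1* are matched by symbol in the expression table. In the order WT, Dspp+/- and Dspp-/-, *Mbd3* had 53.8, 44.18 and 31.75 FPKM and *Ndufb11* 136.4, 132.9 and 136.2. *Mrpl3* had 4.917, 7.597 and 6.848 FPKM and *Vsnl1* 0.6314, 0.6495 and 0.9649, so these genes did not share the members' pattern. Singly the boxes are common, as ATTGG stood in 37.4% and TTTANA in 38.8% of windows on either strand. AACCACA stood in 5.27% of windows on either strand and, among the members, in those of *Dmp1* and *Spp1*. The pair was picked after these sequences had been seen, so its presence in the members is a description of them. Binding at it was not tested.

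The values compared are FPKM, fragments scaled to gene length and library depth, a unit read from the values. Multiplied by exon length, they gave whole fragments, within 0.02 of a fragment, for 98.4% to 98.5% of the genes with 1 to 99 fragments. This gave a depth of 20241576 (WT), 23613621 (Dspp+/-) and 22253158 (Dspp-/-) fragments. Folds are ratios of FPKM with 95% Clopper-Pearson intervals, for the counting error alone, so the spread between mice is not in them. The libraries stood apart in ways other than genotype. The mitochondrial share of summed FPKM was 25.02% (WT), 36.9% (Dspp+/-) and 37.3% (Dspp-/-). *Xist*, which is expressed in female cells, had 2 (WT), 12084 (Dspp+/-) and 10563 (Dspp-/-) fragments, so a difference in the sex of the mice cannot be told apart from one in genotype. In bulk tissue, fewer cells of a type and less RNA per cell cannot be told apart either.

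The SIBLING transcripts were abundant in WT condyle and lower in both mutant libraries. Their summed level was 4677 (WT), 1424 (Dspp+/-) and 2550 (Dspp-/-) FPKM, which was 1.52%, 0.396% and 0.730% of all FPKM in the library. All 4 members were at least 2-fold lower in Dspp+/- than in WT on the scale of log2(FPKM + 1), as were 2.86% of all genes compared. In Dspp-/-, 3 of the 4 were, against 1.37% of all genes, and *Spp1* was the exception. No member was at least 2-fold higher in Dspp+/- (4.88% of all genes) or Dspp-/- (4.05%) than in WT, and all 4 were below WT in both. Each member had its highest level in WT and its lowest in Dspp+/-, and the order *Spp1*, *Ibsp*, *Mepe*, *Dmp1* held in all 3 libraries.

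**Figure D1:**
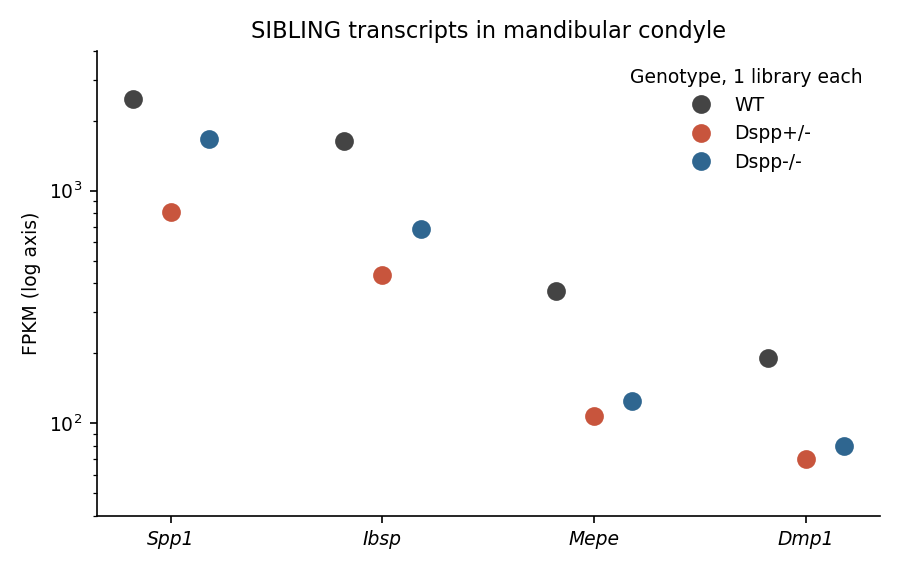
FPKM on a log axis of the 4 SIBLING members, with 1 point for each genotype's single library. WT is the highest and Dspp+/- the lowest point of every gene, and the gap between the mutant libraries is widest for *Spp1* (814 and 1661 FPKM) and narrowest for *Dmp1* (70.4 and 79.5 FPKM).

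*Spp1* encodes osteopontin, an integrin and CD44 ligand that anchors osteoclasts to bone and inhibits crystal growth. It had 2474 (WT), 814 (Dspp+/-) and 1661 (Dspp-/-) FPKM, from 82543, 31662 and 60919 fragments. Among all genes by FPKM it ranked 12 (WT), 31 (Dspp+/-) and 14 (Dspp-/-). Relative to WT the fold was 0.329 (0.325 to 0.333) for Dspp+/- and 0.671 (0.664 to 0.678) for Dspp-/-. The 2 mutant libraries therefore differed by far more than counting error, and *Spp1* was the only member at least 2-fold lower in Dspp+/- than in Dspp-/-, with a fold of 0.490 (0.483 to 0.497). Of all genes compared, 0.852% were that much lower in Dspp+/- than in Dspp-/- and 0.798%, none of them a member, that much higher.

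*Ibsp* encodes bone sialoprotein, which nucleates hydroxyapatite at sites of new bone. Its level was 1643 (WT), 433 (Dspp+/-) and 685 (Dspp-/-) FPKM, from 68778, 21127 and 31544 fragments. It was the member with the largest difference in Dspp+/-, with a fold of 0.263 (0.259 to 0.267) and a log2 ratio of -1.92, and 30 of the 13026 genes compared had a lower ratio. In Dspp-/- the fold was 0.417 (0.412 to 0.423). By rank *Ibsp* was 15 (WT), 63 (Dspp+/-) and 34 (Dspp-/-).

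*Mepe* encodes matrix extracellular phosphoglycoprotein, the source of the acidic ASARM peptide that inhibits mineralization. The WT library held 369 FPKM of it, the Dspp+/- library 107 and the Dspp-/- library 124, from 12564, 4248 and 4648 fragments. It was the member with the largest difference in Dspp-/-, with a fold of 0.337 (0.325 to 0.348) and a log2 ratio of -1.56, below which lay 21 genes. The Dspp+/- fold was 0.290 (0.280 to 0.3001).

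*Dmp1* encodes dentin matrix protein 1, which is cut into fragments that promote mineral formation. FPKM was 191 (WT), 70.4 (Dspp+/-) and 79.5 (Dspp-/-), from 10659, 4596 and 4889 fragments. The folds against WT were 0.370 (0.357 to 0.383) and 0.417 (0.403 to 0.432), the smallest difference of any member in Dspp+/-. In Dspp-/- the folds of *Dmp1* and *Ibsp* were equal to 3 digits, and their counting intervals overlapped.

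The members therefore differed in how close the 2 mutant libraries were. For *Dmp1* and *Mepe*, Dspp+/- was 11.4% and 13.9% lower than Dspp-/-, with folds of 0.886 (0.851 to 0.923) and 0.861 (0.826 to 0.898). For *Ibsp* it was 36.9% lower and for *Spp1* 51.0% lower. With housekeeping scaling the log2 ratio of Dspp+/- to Dspp-/- went from -0.17 to -0.40 for *Dmp1* and from -0.21 to -0.44 for *Mepe*, and all 4 stayed lower in Dspp+/-. Both comparisons with WT use the same library.

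Levels of the members relative to each other do not depend on how a library was scaled. *Spp1* made up 52.9% of the summed FPKM of the 4 members in WT, 57.2% in Dspp+/- and 65.1% in Dspp-/-. *Ibsp* made up 35.1%, 30.4% and 26.9% in the same order. The share of *Mepe* was 7.89% (WT), 7.51% (Dspp+/-) and 4.87% (Dspp-/-), and that of *Dmp1* was 4.07%, 4.95% and 3.12%. The family's make-up thus leaned further to *Spp1* in Dspp-/- than in Dspp+/-.

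**Figure D2:**
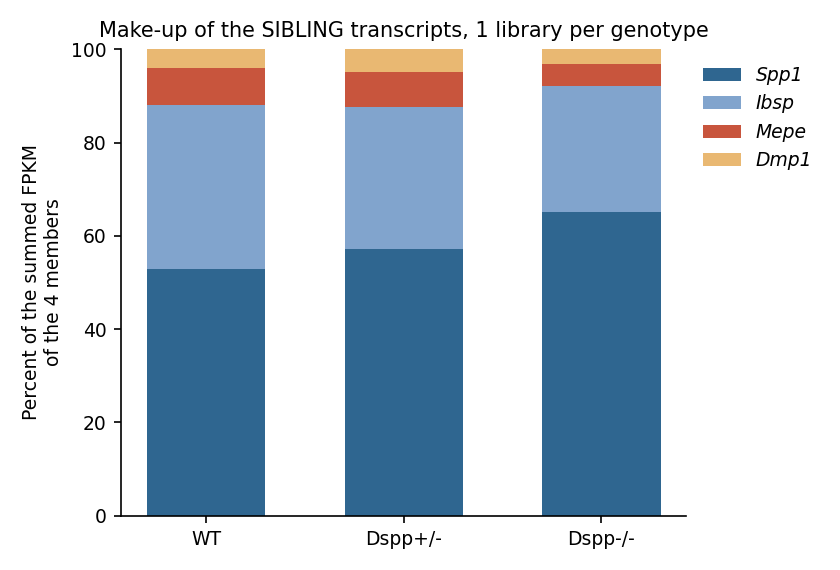
Stacked bars of each member's percent of the summed FPKM of *Spp1*, *Ibsp*, *Mepe* and *Dmp1*, 1 library per genotype. The *Spp1* part is 52.9% (WT), 57.2% (Dspp+/-) and 65.1% (Dspp-/-), and the *Ibsp* part is smaller in both mutant libraries than in WT.

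Of the pairs, *Ibsp* to *Spp1* had an FPKM ratio of 0.664 (0.657 to 0.671) for WT, 0.532 (0.523 to 0.541) for Dspp+/- and 0.413 (0.407 to 0.418) for Dspp-/-, so the 3 intervals were apart. *Mepe* to *Dmp1* had a ratio of 1.94 (1.89 to 1.99) for WT, 1.52 (1.46 to 1.58) for Dspp+/- and 1.56 (1.5005 to 1.63) for Dspp-/-. For this pair the mutant libraries overlapped each other and both lay below WT. *Dmp1* to *Ibsp* had 0.116 (0.114 to 0.118) for WT, 0.163 (0.158 to 0.168) for Dspp+/- and 0.116 (0.113 to 0.120) for Dspp-/-, where only the Dspp+/- interval was apart.

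Bone, cartilage and osteoclast markers were lower together with the SIBLING members. The osteoblast list, with 10 of 10 genes compared, had all 10 lower in both mutant libraries, 9 of them at least 2-fold in Dspp+/- and 2 in Dspp-/-. Its median log2 ratio was -1.57 in Dspp+/- and -0.89 in Dspp-/-, against medians of -1.69 and -1.25 for the SIBLING members and of 0.058 and 0.0070 for all genes compared. *Col1a1*, the chain of type I collagen most abundant in bone, had 6675 (WT), 1719 (Dspp+/-) and 3610 (Dspp-/-) FPKM. *Sparc*, the osteonectin gene, had 4675, 1245 and 2401 FPKM.

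The osteocyte list gave less of a difference than *Dmp1* and *Mepe* did. Of its 9 genes, 8 were compared, and all 8 were lower in both mutant libraries, except that *Pdzd2* (-0.054 in Dspp+/-) was not once libraries were scaled without mitochondrial, hemoglobin, immunoglobulin and muscle genes, with medians of -0.73 in Dspp+/- and -0.68 in Dspp-/-. *Sost*, the sclerostin gene of mature osteocytes, had 272 (WT), 167 (Dspp+/-) and 111 (Dspp-/-) FPKM. *Sost* was thus lower in Dspp-/- than in Dspp+/-, the reverse of all 4 members. Between the mutant libraries, 4 of the 8 list genes were lower and 4 higher in Dspp+/-. In Dspp+/- no gene of the osteocyte list had a log2 ratio below that of *Mepe*, and 1 of 8, *Phex*, had one below that of *Dmp1*. The counting intervals of these 2 folds overlapped, at 0.343 to 0.375 for *Phex* and 0.357 to 0.383 for *Dmp1*. In Dspp-/- again none was below *Mepe*, and 1 of 8, *Sost* (-1.28), was below *Dmp1* (-1.25). *Fgf23*, the phosphate hormone gene of osteocytes, was the 1 listed gene under the filter, at 0.11 (WT), 0.40 (Dspp+/-) and 0.32 (Dspp-/-) FPKM. These values came from only 4, 17 and 13 fragments. The fold intervals were wide, at 1.19 to 14.9 for Dspp+/- and 0.91 to 12.45 for Dspp-/-, and the latter held 1.

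Among cartilage genes, the hypertrophic chondrocyte list had all 5 genes at least 2-fold lower in Dspp+/- and 3 in Dspp-/-, with medians of -1.68 and -1.09. Its 2 most abundant genes were *Mmp13*, a collagenase gene, at 649 (WT), 240 (Dspp+/-) and 487 (Dspp-/-) FPKM, and *Col10a1*, the collagen of hypertrophic cartilage, at 246, 17.3 and 107 FPKM. The chondrocyte list had 7 of 9 genes compared, all lower, with medians of -1.99 and -1.02. *Col2a1* had 761 (WT), 94.2 (Dspp+/-) and 308 (Dspp-/-) FPKM, and *Comp*, a cartilage matrix gene that tendon also expresses, had 462, 312 and 227. *Matn1* and *Matn3* of that list were under the filter. The osteoclast list, a further source of *Spp1*, had 11 of 11 genes lower, with medians of -1.21 in Dspp+/- and -0.58 in Dspp-/-. *Ctsk* had 863, 279 and 481 FPKM and *Acp5* 756, 248 and 399 in the order WT, Dspp+/-, Dspp-/-. Every gene of these bone, cartilage and osteoclast lists that passed the filter had fragments in all 3 libraries. *Col9a1* had the lowest Dspp+/- ratio of the chondrocyte list, at 14.9 (WT), 0.44 (Dspp+/-) and 7.39 (Dspp-/-) FPKM. *Matn1*, under the filter, had 0 fragments in Dspp+/-.

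**Figure D3:**
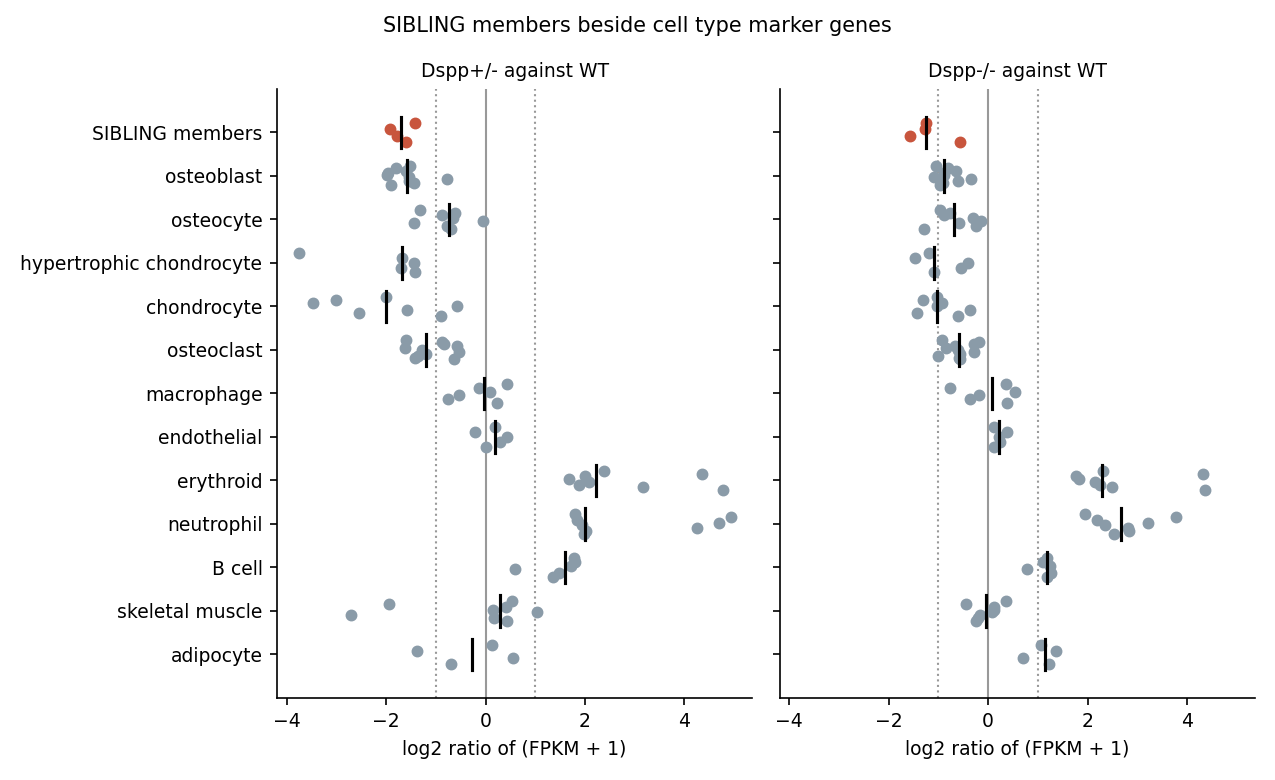
The log2 ratio of FPKM + 1 to WT for each marker gene averaging 1 FPKM or more, by list, in Dspp+/- (left) and Dspp-/- (right). Each point is 1 gene in 1 library pair, black lines are list medians and dotted lines mark 2-fold. The 4 SIBLING members lie at -1.92 to -1.42 on the left and at -1.56 to -0.57 on the right, on the side of the osteoblast, chondrocyte and osteoclast lists, while the erythroid, neutrophil and B cell lists lie above 0.

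Set against the osteoblast list, the members parted. In Dspp+/- the log2 ratio of *Spp1* was close to the list's median (difference -0.03) and that of *Dmp1* was 0.15 above it, while *Mepe* (-0.20) and *Ibsp* (-0.35) were below. In Dspp-/- the ratios of *Dmp1* (-0.36), *Ibsp* (-0.37) and *Mepe* (-0.67) were below the list's median, and no gene of the list had a lower ratio than these 3. *Spp1* was 0.32 above the median there, with 9 of the 10 list genes lower.

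Per *Col1a1* within a library, which no scaling of whole libraries can change, the members took 2 patterns. *Mepe* had 0.0553 (0.0543 to 0.0563) of the *Col1a1* FPKM in WT, 0.0622 (0.0604 to 0.0642) in Dspp+/- and 0.0344 (0.0334 to 0.0354) in Dspp-/-. *Dmp1* had 0.0285 (0.0280 to 0.0291), 0.0410 (0.0398 to 0.0422) and 0.0220 (0.0214 to 0.0226) in the same order. *Ibsp* had 0.246 (0.24424 to 0.24807) in WT, 0.252 (0.24823 to 0.2553) in Dspp+/-, just clear of the WT interval, and 0.190 (0.188 to 0.192) in Dspp-/-. These 3 were thus above WT in Dspp+/- and below it in Dspp-/-, by very little for *Ibsp* in Dspp+/-. *Spp1* was above WT in both, with 0.371 (0.368 to 0.373) for WT, 0.473 (0.468 to 0.479) for Dspp+/- and 0.460 (0.456 to 0.464) for Dspp-/-. Against WT, *Col1a1* was thus lower by a larger factor than all 4 members in Dspp+/-, and by a smaller one than *Dmp1*, *Mepe* and *Ibsp* in Dspp-/-. The side of WT on which a member falls in Dspp+/- depends on the gene used as divisor. Dspp+/- folds were 0.2575 for *Col1a1*, 0.266 for *Sparc* and 0.3295 (0.3145 to 0.3451) for *Bglap2*, also on the osteoblast list. Those of *Ibsp* (0.263) and *Mepe* (0.290) lay below the *Bglap2* fold, and that of *Dmp1* (0.370) above it. The *Spp1* fold (0.329) lay within the *Bglap2* interval. It was below the fold of *Alpl*, another osteoblast list gene, at 0.348 (0.338 to 0.358).

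**Figure D4:**
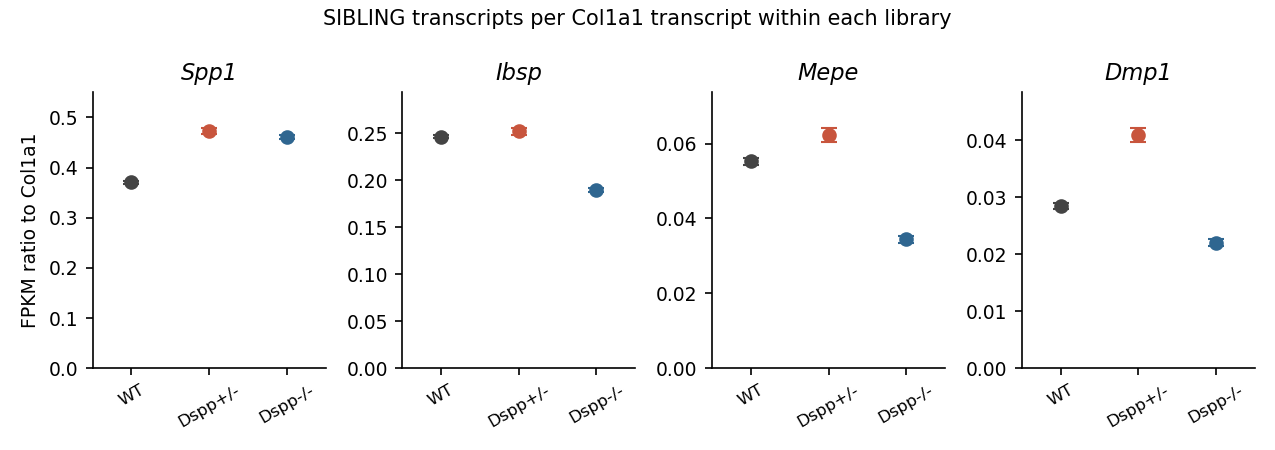
FPKM of each SIBLING member divided by the FPKM of *Col1a1* in the same library, with 95% Clopper-Pearson intervals that cover counting error only, 1 library per genotype and linear axes from 0. *Spp1* is above WT in both mutant libraries, and *Mepe* (0.0553, 0.0622 and 0.0344), *Dmp1* and, by little, *Ibsp* are above it in Dspp+/- and below it in Dspp-/-.

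Markers of blood-forming cells were higher in the same libraries. The erythroid list had 8 of 8 genes at least 2-fold higher in both mutant libraries, and its summed level was 904 (WT), 3757 (Dspp+/-) and 3637 (Dspp-/-) FPKM. *Hbb-bs* and *Hba-a1*, 2 globin genes with near-identical copies, were its most abundant genes, at 425, 1794 and 1886 FPKM and at 395, 1577 and 1344 FPKM. The neutrophil list, led by *S100a9* and *Ngp*, also had 8 of 8 at least 2-fold higher, with sums of 591, 2629 and 3480 FPKM. The B cell list, led by *Igkc* and *Ighm*, had 5 of 6, with sums of 508, 1189 and 1090 FPKM. No marker of these lists was at 0 in all libraries. *S100a9*, a calprotectin gene, had 232, 916 and 1339 FPKM, *Ngp* 145, 562 and 744, *Igkc* 301, 841 and 721, and *Ighm* 193, 292 and 332. The macrophage list (*Cd68* and *Csf1r* highest), also a source of *Spp1*, had medians of -0.023 in Dspp+/- and 0.085 in Dspp-/-. Endothelial genes (*Cdh5* and *Pecam1* highest) had 0.20 and 0.22, skeletal muscle genes (*Acta1* and *Tnnt3*) 0.29 and -0.041, and 4 of 5 adipocyte genes (*Cfd* and *Fabp4*) -0.27 and 1.14. In Dspp+/- the muscle list was split, with *Myh4* and *Actn3* at least 2-fold lower and *Myh2* at least 2-fold higher. None of its 8 genes passed 2-fold in Dspp-/-. Of the adipocyte genes, *Cfd* was at least 2-fold lower in Dspp+/-, and 3 were at least 2-fold higher in Dspp-/-. The macrophage, endothelial and muscle medians in Dspp+/- or Dspp-/- changed sign with at least 1 of 5 other scalings, and those of the other lists did not. The part of these cells in the lower SIBLING levels was not tested.

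Teeth also make SIBLING proteins. Of the 7 enamel and tooth genes listed, *Ambn* and *Klk4* were in the table and the others were not analysed here. *Ambn*, an enamel protein gene, had 3 (WT), 22 (Dspp+/-) and 19 (Dspp-/-) fragments. *Klk4*, an enamel protease gene, had 6 (WT), 0 (Dspp+/-) and 2 (Dspp-/-) fragments. The part of tooth tissue in the SIBLING levels was not tested.

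Genes that act with SIBLING proteins were described from 5 lists of 42 genes, of which *Phex*, *Sp7*, *Runx2*, *Mmp13*, *Mmp9* and *Itgb3* are also on the bone or cartilage cell lists above. The list of enamel proteins had *Ambn* alone in the table. The kinases and processing enzymes had 7 of 8 genes compared, all 7 lower in both mutant libraries and 3 at least 2-fold lower in Dspp+/-. Their medians were -0.80 in Dspp+/- and -0.59 in Dspp-/-. *Bmp1*, a protease that cuts DMP1 into its active fragments, had 45.7 (WT), 14.2 (Dspp+/-) and 22.3 (Dspp-/-) FPKM, a Dspp+/- fold of 0.31 (0.298 to 0.324). *Phex*, an endopeptidase that degrades ASARM peptides, had 52.4, 18.8 and 34.4 FPKM. *Fam20c*, the kinase that phosphorylates SIBLING proteins, had 18.3, 8.40 and 9.16 FPKM, lowest in Dspp+/- as the members were. *Bmp1* was the 1 gene of this list at least 2-fold lower in Dspp-/-.

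The receptors differed less. All 10 were compared, and 7 were lower and 3 higher in each mutant library, none of them at least 2-fold lower, with medians of -0.51 in Dspp+/- and -0.21 in Dspp-/-. *Itgb1*, which pairs with many alpha chains, had 174 (WT), 137 (Dspp+/-) and 157 (Dspp-/-) FPKM. *Itgb5* had 111, 78.7 and 76.5 FPKM, and *Cd44*, the hyaluronan receptor that also binds osteopontin, had 49.1, 32.7 and 40.5 FPKM. *Itga4*, an integrin chain of white blood cells, had 1.14 (WT), 5.59 (Dspp+/-) and 5.11 (Dspp-/-) FPKM, higher in the same libraries as the blood cell lists. *Itgb6*, an epithelial integrin chain, had 2.01, 4.38 and 2.57 FPKM, a Dspp+/- fold of 2.17 (1.89 to 2.498) in FPKM that was under 2-fold on the scale of log2(FPKM + 1). *Itga8* was the other, with 2.34, 2.36 and 2.57 FPKM and folds whose intervals held 1.

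The matrix proteases that cut SIBLING proteins or are bound by them had 6 of 9 genes compared, all lower in both mutant libraries. In Dspp+/- 4 were at least 2-fold lower and in Dspp-/- none, with medians of -1.18 and -0.51. Besides *Mmp13*, they were *Mmp9*, with 552 (WT), 239 (Dspp+/-) and 371 (Dspp-/-) FPKM, *Mmp2*, with 381, 171 and 259, and *Mmp14*, with 114, 47.3 and 66.1. *F2*, the prothrombin gene, had at most 2 fragments in any library, and the other 2 listed genes were not analysed here.

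Transcription factors that act on SIBLING genes had 9 of 10 genes compared, with medians of -0.78 in Dspp+/- and -0.34 in Dspp-/-. *Sp7*, the osterix gene needed for osteoblast formation, had 65.4 (WT), 23.6 (Dspp+/-) and 34.6 (Dspp-/-) FPKM. *Dlx5* had 34.0, 15.6 and 21.01 FPKM and *Dlx3* 15.7, 4.74 and 6.41 FPKM, both homeobox factors of bone. These 3 were at least 2-fold lower in Dspp+/-, and only *Dlx3* was in Dspp-/-. *Atf4* and *Mef2c*, which are expressed in many cell types, had 74.3, 83.9 and 63.4 FPKM and 36.7, 42.5 and 43.0 FPKM. *Runx2*, a form of whose binding sequence occurs in the *Dmp1* and *Spp1* lines above, was also on the osteoblast list. It had 17.7, 9.90 and 13.8 FPKM.

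**Figure D5:**
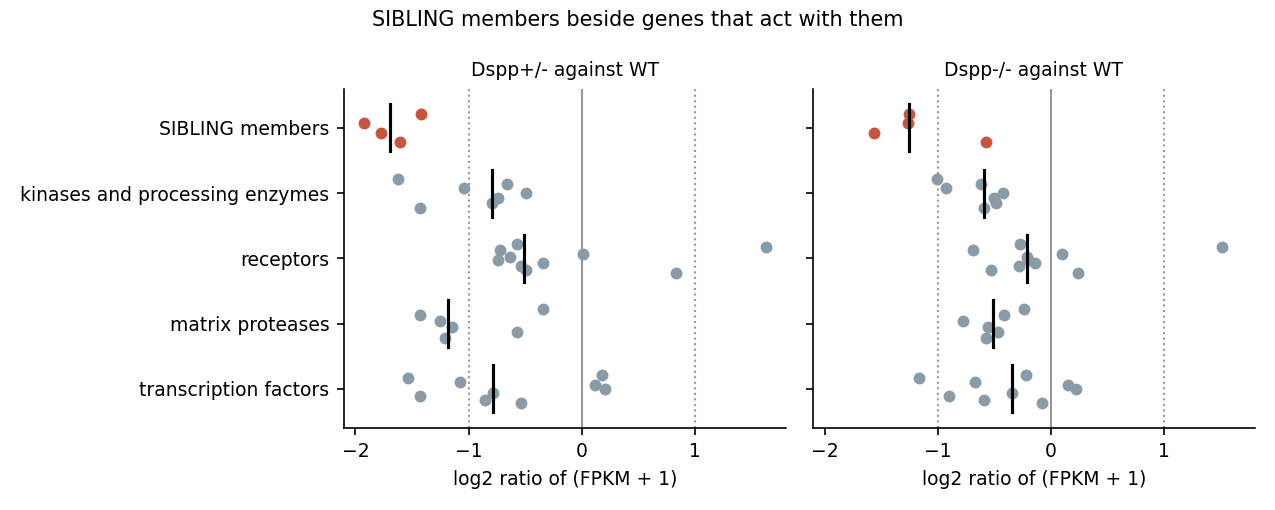
The log2 ratio of FPKM + 1 to WT of the SIBLING members and of 4 lists of genes that act with them, for genes averaging 1 FPKM or more, in Dspp+/- (left) and Dspp-/- (right). Each point is 1 gene in 1 library pair, black lines are medians and dotted lines mark 2-fold. The SIBLING median is -1.69 on the left and -1.25 on the right, and the receptor farthest to the right in both panels is *Itga4*.

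The genes most like each member were sought by the distance between pairs of log2 ratios to WT, over 3 libraries and 4038 other genes averaging 10 FPKM or more. For *Spp1* they included *Col3a1* (distance 0.063) and *Bglap2* (0.072), the latter an osteocalcin gene with near-identical copies, and 5 genes lay within 0.1. For *Ibsp* they were *Rbp4* (0.018), *Loxl4* (0.046) and *Cgref1* (0.16). *Dmp1* had *Sdc3* (0.073), *Rpl7a* (0.12), which has many processed copies, and *Serpinh1* (0.13). *Mepe* had no gene within 0.1, and the nearest were *Arl4d* (0.21), *Ddit4* (0.30) and *Rbp4* (0.33). *Arl4d* had 34.2 (WT), 10.1 (Dspp+/-) and 9.53 (Dspp-/-) FPKM.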

How the data were processed

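The authors deposited 1 table with a value per gene for WT, Dspp+/- and Dspp-/-. Its unit is not named, and the deposited values were read as FPKM from their steps. The submitters' processing notes list FastQC 0.11.5, HISAT2 2.1.0, StringTie 1.3.3b and DESeq 1.28.0, and a human build, hg38, although the gene identifiers are of mouse. Libraries were poly(A)-selected, and a strand setting is not given in the sources used here.

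Fragments were recovered from FPKM and merged exon length in GENCODE M21, which holds 26641 of the 26970 genes; recovery was tested on simulated data. The 13026 genes averaging 1 FPKM or more were compared as log2 ratios of FPKM + 1, and called at 2-fold. Members and lists were chosen with earlier results of these data known. Genes named are the members, the 3 most abundant and every 2-fold gene of each partner list, the 2 most abundant of each marker list, and the 3 genes most like each member, of which 1 is not reported here. *Gm42793*, *Runx2*, *Pdzd2*, *Itga8*, *Itgb6*, the listed genes under the filter that are named, the spaced promoter pair and the *Sost* sequence were added after their values or sequences were seen. So were the *Sparc*, *Bglap2* and *Alpl* folds set beside that of *Col1a1*. The same holds for *Col9a1*, *Myh2*, *Myh4*, *Actn3* and the values of other genes with the pair. The Kruskal–Wallis test of the study cannot be used on 1 library per genotype, and 12 alternatives were tried. Computations ran in Python 3.11.15 with pandas 2.3.3, numpy 2.4.6 and scipy 1.17.1, and plots were drawn with matplotlib 3.10.9.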

Additional observations from a re-analysis of the deposited data

How the results depend on the processing

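No paired analysis was possible because each genotype has 1 library, and no library could be left out. Of 96 values of the members' log2 ratios under 8 alternatives, none changed direction. Of these values, 53 stayed within the counting interval of the main fold and 43 fell outside it. No count of members changed with a pseudocount of 0.1, of 5 or of none. The median log2 ratio of the 4 members in Dspp+/- against WT (-1.69) was -1.76 with median-ratio scaling, -1.61 without mitochondrial, hemoglobin, immunoglobulin and muscle genes and -2.04 with housekeeping scaling. In Dspp-/- against WT (-1.25) it was -1.18 without mitochondrial genes, -1.14 without the wider set and -1.38 with housekeeping scaling. In Dspp+/- against Dspp-/- (-0.44) it was -0.49 with median-ratio scaling, -0.48 with upper-quartile scaling, -0.49 without mitochondrial genes, -0.47 without the wider set and -0.67 with housekeeping scaling. The threshold set the counts. At 1.5-fold, 2 members were lower in Dspp+/- than in Dspp-/-, in place of 1, and at 4-fold 0 were lower in each of the 3 comparisons. Over all genes, 373 were at least 2-fold lower and 636 higher in Dspp+/- than in WT, so 37.0% of these were lower. With a pseudocount of 0.1 the counts were 605 and 971, with 5 they were 156 and 185, and without one 643 and 1021. For Dspp-/- against WT they were 179 and 527, and 363 and 836, 45 and 136, and 399 and 887 in the same order. For Dspp+/- against Dspp-/- they were 111 and 104, and 223 and 214, 36 and 36, and 242 and 237. With housekeeping scaling 803 were lower and 370 higher in Dspp+/- than in WT (68.5% lower), 264 and 440 in Dspp-/- (37.5%, against 25.4%) and 164 and 62 between the mutants (72.6%, against 51.6%). That scaling moved the median of all genes to -0.23 in Dspp+/- against WT and -0.15 between the mutants, and leaving out the wider set moved it to 0.12 and 0.10 in Dspp+/- and Dspp-/-, and the cause was not tested. Without a filter 172 and 170 genes differed between the mutants. Among genes averaging 5 FPKM or more, 272 and 281 differed in Dspp+/-, 110 and 228 in Dspp-/- and 57 and 52 between the mutants. At 1.5-fold the counts were 1166 and 1501, 1070 and 1152, and 441 and 563, and at 4-fold 24 and 124, 6 and 103, and 15 and 13.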
